A study of Mus musculus with 18 samples.

Results

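The 10 genes described here are imprinted protein-coding genes of the mouse: Peg3, Peg10, Igf2, Igf2r, Grb10, Cdkn1c, Plagl1, Mest, Snrpn and Impact. They were chosen by name, as the rows of the deposited table that carry one of these 10 symbols, and they make up 10 of 47643 genes and 73 of 115125 transcript entries. RNA came from 5G6GR cells, a mouse embryonic stem (ES) cell line known to carry an inducible Gata6 fusion, which was kept without feeder cells in serum and leukemia inhibitory factor. For 15 libraries purified total RNA was diluted to 10 pg and amplified by RT-RamDA, a reverse transcription that copies the same RNA repeatedly by strand displacement, followed by 17 PCR cycles. The reverse transcription primers were random hexamers (N6), not-so-random primers designed to avoid ribosomal RNA (NSR), oligo(dT) (dT), N6 with dT (N6dT) or NSR with dT (NSRdT), with 3 libraries each. A further 3 libraries, called bulk, used 200 ng of total RNA of these cells, depleted of ribosomal RNA, primed with N6 and amplified over 7 cycles. Estimated counts per library ranged from 5333302 to 10234388. The design compares primers and input in 1 cell line. Bulk replicate 2 stood apart, with primitive endoderm markers summing to 7925 counts per 1000000 (CPM) against 1265 and 1158 in the other bulk libraries. Calls of the 10 genes against bulk are therefore also given without it where that changes them. For other genes, calls against bulk are given with it only. Whether libraries within a group stem from different cultures is not stated, so p-values measure only the spread between these libraries, which may be technical.

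Imprinted genes are expressed from the maternal or the paternal chromosome according to a methylation mark laid down in the germ line. The zinc finger protein ZFP57 and its partner TRIM28 protect these marks after fertilization, and many imprinted genes act on fetal growth, with IGF2 as a growth factor and IGF2R, GRB10 and CDKN1C as brakes. Imprinting is known to drift in cultured ES cells. The counts do not separate the parental alleles, so the values below are total levels of each gene.

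On mm10 Igf2r spans chr17:12682406-12769664, Peg10 chr6:4747306-4760517, Grb10 chr11:11930508-12038683, Peg3 chr7:6703892-6730431, Snrpn chr7:59982495-60140219, Cdkn1c chr7:143458339-143461050, Igf2 chr7:142650766-142666816, Mest chr6:30723547-30748465 and Plagl1 chr10:13060504-13131694. The primers meet different ends of these messages. Oligo(dT) anneals to the poly(A) tail, so with dT alone a copy begins at the 3′ end and has to be extended to reach upstream exons, while random primers can begin along the whole message. The last 30 bases of the most abundant transcript of 6 genes are shown for that reason, 5′ to 3′ from GENCODE vM21 on mm10, with each AATAAA, the usual signal for cleavage and polyadenylation, in capitals.
Igf2r, chr17:12682406-12682435, minus strand: aatttcAATAAAgataaattattaactagg
Peg10, chr6:4760488-4760517, plus strand: AATAAATAAAgacttagtggttaaggcaaa
Grb10, chr11:11930508-11930537, minus strand: gttattagaAATAAAcattAATAAAgcgtt
Peg3, chr7:6703892-6703921, minus strand: tcAATAAAAATAAAgttaaaaataagataa
Cdkn1c, chr7:143458342-143458371, minus strand: caggttctaAATAAAgaggcccaacaaaaa
Snrpn, chr7:59982495-59982524, minus strand: taaattataaaatgattttcctgaagaaga
AATAAA lay within the last 30 bases of the annotated transcript in 8 of the 10 genes, and in 49.7% of the most abundant transcripts of 15956 protein-coding genes. Snrpn and Plagl1 lacked it in this window. Peg3 also holds a run of 12 A in its 3′ untranslated region, 2770 bases before the annotated end, shown here with the run in capitals.
Peg3, chr7:6706653-6706682, minus strand: ttttcttgcAAAAAAAAAAAAtgttacatt
Peg3, Igf2 and Impact contained such runs of 8 A or more, which 20.7% of those protein-coding transcripts contained over 50 bases from their end.

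Levels are given as CPM (estimated counts scaled to a common library size) scaled by TMM, which sets library sizes so that most genes are level between libraries. In bulk, Peg10 was at 89.99 ± 7.69 CPM (SD, n = 3), Grb10 at 90.4 ± 7.69, Igf2r at 76.3 ± 6.81, Impact at 51.6 ± 2.71, Peg3 at 46.8 ± 23.6 and Snrpn at 42.7 ± 6.34. These 6 genes had counts in all 18 libraries. The other 4 were low or close to absent: Cdkn1c at 2.90 ± 0.509 CPM, Mest at 1.09 ± 0.218, Igf2 at 9.94 ± 14.7 (1.46 over replicates 1 and 3) and Plagl1 at 0.0398 ± 0.0689. Between genes only values per length can be compared, and as TPM, the share of transcripts after dividing by length, the order in bulk was Snrpn (51.4 ± 7.12), Grb10 (44.5 ± 3.62), Impact (35.0 ± 2.18), Peg10 (31.4 ± 2.35), Igf2r (22.5 ± 2.82) and Peg3 (14.1 ± 8.14). Neighbours in that order overlapped for Snrpn and Grb10 and for Igf2r and Peg3, and the other neighbours did not. With dT the order by TPM was Impact (58.1 ± 7.35), Snrpn (53.3 ± 10.1), Grb10 (23.6 ± 6.02), Peg10 (12.2 ± 4.83), Cdkn1c (10.5 ± 9.07), Igf2r (8.50 ± 6.15) and Peg3 (6.22 ± 1.96). The ranges of Impact and Snrpn overlapped, as did those of Peg10, Cdkn1c, Igf2r and Peg3 from each gene to the next. Dividing by length does not make genes fully comparable with dT. Over all protein-coding genes the median log2 fold change of dT against bulk was 0.34 under 2000 bases. It was -1.04 at 8000 bases or more. The part of length in the order with dT was not tested.

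**Figure D1:**
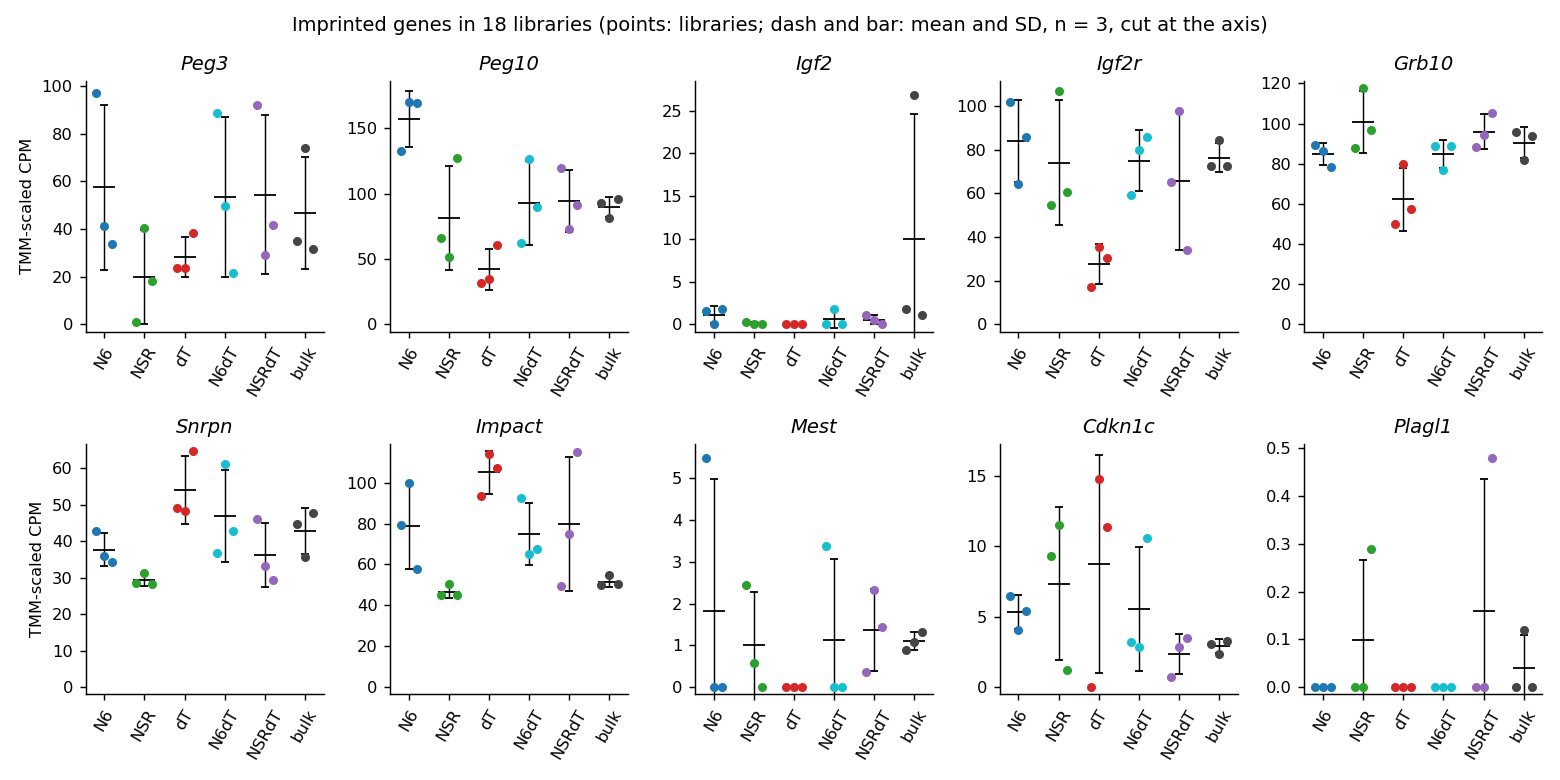
TMM-scaled CPM (vertical axis) of the 10 genes in each library of the 5 primer sets and bulk (horizontal axis), with the mean and SD of 3 libraries. Igf2r and Peg10 had their lowest mean with dT and Impact its highest, Igf2 stood out in 1 bulk library, and Plagl1 was at or near 0 throughout.

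Random primers against dT compared the mean of N6 and NSR with dT, to ask which of these genes depend on where copying starts. Igf2r, Peg10 and Grb10 were higher with random primers and Impact was higher with dT. Of the 10 genes, 8 passed the filter on low counts, and these 4 were called at an adjusted p under 0.05 (edgeR quasi-likelihood test on 15 libraries, Benjamini-Hochberg adjustment over 15682 genes, two-sided), while 17.1% of all tested genes were called, 9.53% higher and 7.54% lower. The median log2 fold change of the 8 genes was 0.42, against 0.13 for all tested genes.

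Igf2r encodes the receptor that carries IGF2 to lysosomes, and it is expressed from the maternal allele in most mouse tissues. Its libraries stood at 102, 64.4 and 85.8 CPM with N6, at 54.4, 107 and 60.5 with NSR, and at 17.2, 35.2 and 30.2 with dT. All 6 libraries with random primers alone were above all 3 with dT. The log2 fold change was 1.52 ± 0.35 (SE; adjusted p = 0.0067 by edgeR), and Igf2r remained called without any one of the 9 libraries (adjusted p up to 0.0449). Peg10, a retrotransposon-derived gene needed in the placenta and expressed from the paternal allele, was at 132, 170 and 169 CPM with N6, at 66.0, 51.7 and 127 with NSR, and at 31.8, 34.3 and 60.3 with dT. One dT library reached into the NSR range, and none reached the N6 range. Its log2 fold change was 1.43 ± 0.32 (adjusted p = 0.0059 by edgeR), and it too remained called without any one library (adjusted p up to 0.0426). Grb10, an adaptor that damps insulin and IGF receptor signalling, was at 89.3, 86.2 and 78.5 CPM with N6, 87.6, 118 and 96.8 with NSR, and 49.8, 79.7 and 57.2 with dT. The highest dT library lay above the lowest N6 library. Its log2 fold change of 0.57 ± 0.18 had an adjusted p of 0.0421 by edgeR. That call was lost without N6 replicate 1, 2 or 3, NSR replicate 2 or 3, or dT replicate 1 or 3, with adjusted p from 0.0564 to 0.208.

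Impact encodes a regulator of the translational stress kinase GCN2 and is expressed from the paternal allele in the mouse. It was at 79.3, 99.7 and 57.7 CPM with N6, at 44.8, 50.2 and 44.8 with NSR, and at 93.6, 114 and 107 with dT. The highest N6 library lay above the lowest dT library, and all NSR libraries lay below. The log2 fold change was -0.79 ± 0.24 (adjusted p = 0.0329 by edgeR). It was lost without N6 replicate 1 or 3, NSR replicate 1 or 3, or dT replicate 2 or 3, with adjusted p from 0.0565 to 0.0865. Scaling moved the directions in this comparison: by library totals alone, without TMM, the median of all tested genes was -0.80 in place of 0.13, and 15.9% of called genes were higher with random primers in place of 55.8%. On that scale Igf2r (0.59) and Peg10 (0.50) were not called, Grb10 turned to -0.36 without a call, and Impact was called lower with random primers. Relative to the median of all genes on either scale, Igf2r, Peg10 and Grb10 stood above it and Impact below. The share of ribosomal and mitochondrial RNA differed between these groups, at 54.5% for N6, 45.3% for NSR and 10.4% for dT, and its part in the scaling was not tested.

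Snrpn, Peg3, Cdkn1c and Mest were tested and not called. Snrpn, which encodes a spliceosomal Sm protein, was at 42.9, 35.9 and 34.4 CPM with N6, 28.6, 31.2 and 28.3 with NSR, and 49.2, 48.4 and 64.9 with dT. Every dT library was above every N6 and NSR library, with a log2 fold change of -0.70 ± 0.24 that missed the threshold (adjusted p = 0.0541 by edgeR; 0.0278 by DESeq2). Peg3, a zinc finger protein linked to growth and maternal behaviour, was at 97.4, 41.4 and 33.8 CPM with N6 and 23.7, 23.4 and 38.2 with dT, while NSR gave 1.07, 40.4 and 18.2, and its log2 fold change was 0.26 ± 0.69 (adjusted p = 0.851 by edgeR). The NSR library at 1.07 CPM rested on 7 counts. Cdkn1c, a cyclin-dependent kinase inhibitor that restrains growth, had 0 counts in the first dT library and 213 and 162 in the others, and its log2 fold change was -0.48 ± 1.10 (adjusted p = 0.823 by edgeR).

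**Figure D2:**
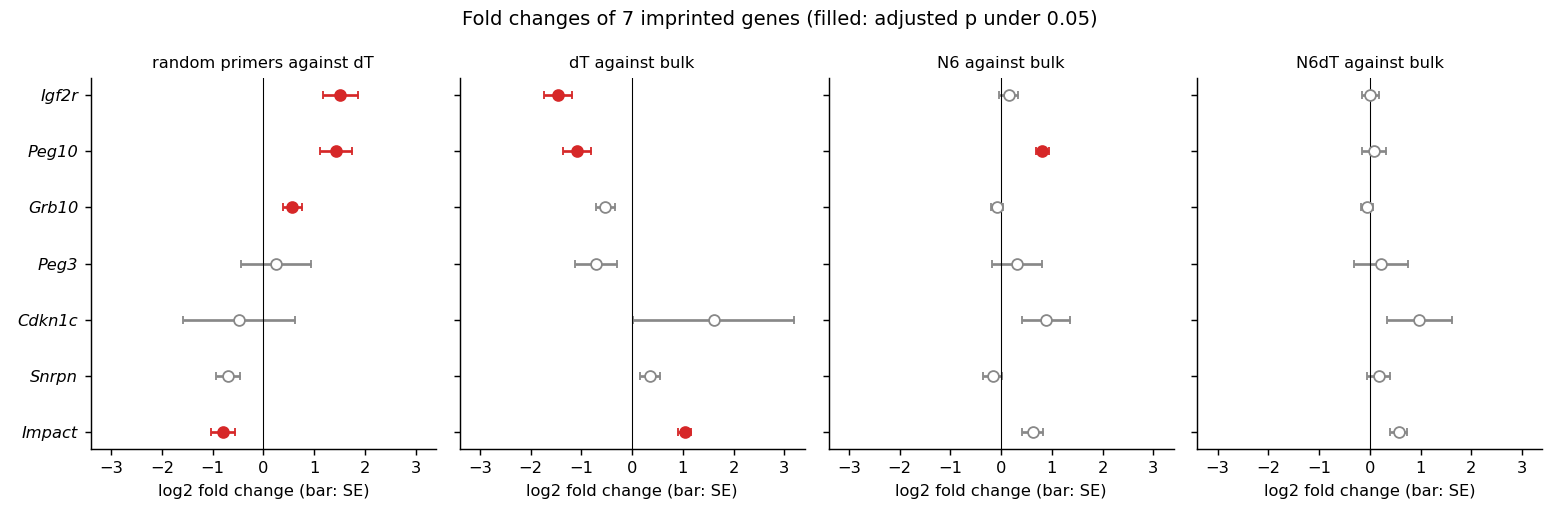
Log2 fold changes with their SE (horizontal axis) for 7 genes (vertical axis) in 4 comparisons, filled where the adjusted p was under 0.05. Igf2r and Peg10 were called in opposite directions for random primers against dT and for dT against bulk. These 2 comparisons share the dT libraries. Igf2r, Grb10 and Snrpn lay near 0 for N6 and N6dT against bulk. Cdkn1c (0.88 with N6, 0.97 with N6dT) and Impact (0.62 and 0.57) lay higher without a call. Peg10 (0.82) was called with N6.

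Transcript length went with these fold changes over all protein-coding genes. The median log2 fold change of random primers against dT was -0.74 for 3624 genes whose most abundant transcript was under 2000 bases, -0.10 at 2000 to 4000 bases, 0.41 at 4000 to 6000, 0.80 at 6000 to 8000 and 1.20 for 579 genes of 8000 bases or more. Igf2r, at 8887 bases, lay between the median and the upper quartile (1.90) of its length class. Grb10 (5061 bases), Snrpn (1932 bases) and Cdkn1c (1901 bases) were also within the quartiles of theirs. Peg10, at 6567 bases, was just above the upper quartile of its class (1.41). Impact (3432 bases) lay below the lower quartile of its class (-0.62), and Peg3 (8694 bases) lay below that of its class (0.59). For Peg10, Impact and Peg3 alike the quartile was within 1 SE of the value. Peg3 and Impact both contain an internal run of 8 A or more. Medians by such runs cover only genes whose most abundant transcript matched the annotation by identifier and version, which leaves out Impact itself. At 8000 bases or more, the median was 1.20 for 308 genes with such a run and 1.28 for 179 without. At 2000 to 4000 bases, the class of Impact, it was -0.10 with and without one. In the other classes it was -0.58 with and -0.76 without under 2000 bases, 0.29 and 0.51 at 4000 to 6000, and 0.77 and 0.87 at 6000 to 8000.

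**Figure D3:**
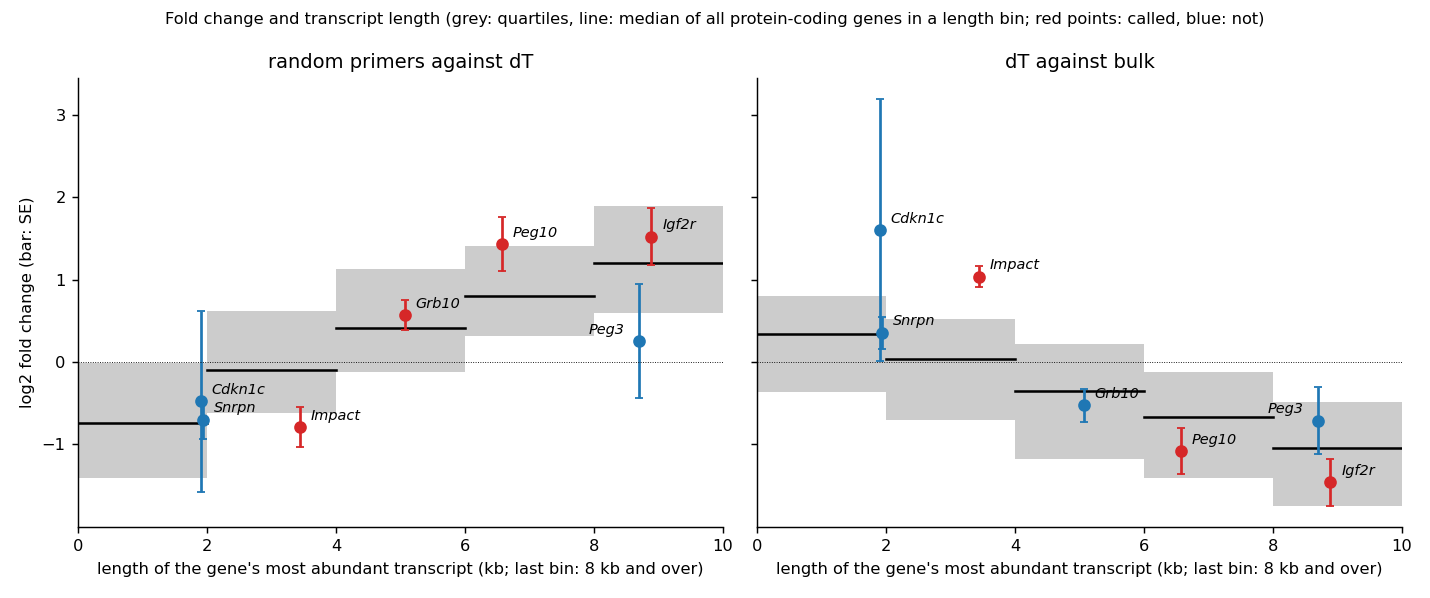
Log2 fold change (vertical axis) against the length of the most abundant transcript in kb (horizontal axis) for 7 genes with SE, over the median (line) and quartiles (grey) of all protein-coding genes in 5 length classes, for random primers against dT and for dT against bulk. Igf2r and Grb10 followed their classes, while Impact lay outside the quartiles of its class in both panels, by less than its SE for random primers against dT.

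Adding dT to random primers, and replacing N6 by NSR, moved none of the 10 genes past the threshold. For dT added against not added, 0 of the 8 tested genes were called at an adjusted p under 0.05 by edgeR, with 2.17% of all tested genes called. At an unadjusted p under 0.05 the count was 0, against 8.94% of all genes, and DESeq2 called 0. The log2 fold changes ran from -0.78 ± 0.93 for Cdkn1c to 0.67 ± 0.56 for Peg3. Impact, higher with dT alone, had 0.35 ± 0.20 and Snrpn 0.31 ± 0.20, while Igf2r had -0.16 ± 0.27 and Peg10 -0.27 ± 0.25. NSR against N6 compared the mean of NSR and NSRdT with the mean of N6 and N6dT. The NSR libraries alone were not tested against the N6 libraries alone. None of the 8 was called by edgeR or DESeq2, with 0.172% of all tested genes called. No gene of the 8 had an unadjusted p under 0.05 by edgeR, against 5.41% of all genes. Grb10 was at 0.21 ± 0.15, and it was called only when library totals replaced TMM (0.62). The interaction of NSR with added dT called 0 of 8 by either tool and 0 at an unadjusted p under 0.05, with 0.0638% and 4.39% of all genes, and Impact came closest to an effect by its unadjusted value, at 0.84 ± 0.40 (unadjusted p = 0.0529 by edgeR). In the mixed primer sets Igf2r was at 59.2, 80.0 and 85.7 CPM with N6dT and at 65.3, 97.7 and 34.1 with NSRdT. The lowest of these lay within the range of dT alone and the rest were above it. Peg10 was at 62.0, 126 and 89.9 with N6dT and at 119, 72.7 and 91.2 with NSRdT, all above the 3 dT libraries. Impact with NSRdT ran from 49.5 to 114.9 CPM, from the range of NSR to just above that of dT.

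Each primer set was then set against bulk, to ask which of these genes kept their bulk level at 10 pg. Input, kit, ribosomal depletion and PCR cycles differ together between these groups and cannot be told apart. With dT, Igf2r, Peg10 and Mest were lower than in bulk and Impact was higher. These 4 were called of 9 tested (edgeR on 6 libraries), with 18.8% of 15708 genes called, 6.9% higher and 11.9% lower. Mest and Igf2 had no count with dT and passed the filter through bulk alone, and without them the count was 3 of 7. Igf2r was at 72.3, 84.2 and 72.5 CPM in bulk, above all dT libraries, with a log2 fold change of -1.46 ± 0.28 (adjusted p = 0.0150). Peg10 was at 92.7, 81.3 and 95.9 in bulk, also above all dT libraries, with -1.08 ± 0.28 (adjusted p = 0.0412). Impact was at 49.8, 54.7 and 50.3 in bulk, below all dT libraries, with 1.04 ± 0.13 (adjusted p = 0.0067). Without bulk replicate 1, 2 or 3 the calls of Igf2r (adjusted p 0.0597 to 0.0673) and Peg10 (0.102 to 0.149) were lost, and Peg10 was also lost without dT replicate 1 (0.0634) or 2 (0.0735). The call of Impact was lost without bulk replicate 1 (0.0520) or 3 (0.0575). All 3 kept their sign in each of these fits. Grb10 (-0.53 ± 0.20), Snrpn (0.36 ± 0.19), Peg3 (-0.71 ± 0.41) and Cdkn1c (1.60 ± 1.59) were not called with dT. Without dT replicate 2 Grb10 was called (-0.75, adjusted p = 0.0138), and without dT replicate 1, which had no Cdkn1c count, Cdkn1c was called (2.18 ± 0.37, adjusted p = 0.0135). Without NSR replicate 3, Cdkn1c was also called against bulk with NSR (1.84, adjusted p = 0.0272).

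With N6, Peg10 was the one called gene of 9 tested, with 7.21% of genes called. Its 3 N6 libraries were all above the 3 bulk libraries, with a log2 fold change of 0.82 ± 0.14 (adjusted p = 0.0147 by edgeR), which reversed to -0.55 by library totals alone. The call was lost without bulk replicate 1 (0.0932), 2 (0.0851) or 3 (0.0820) and in 1 fit over 18 libraries (0.294). Impact was at 0.62 ± 0.20 with N6 (adjusted p = 0.130), and it was called without N6 replicate 3 (0.0279) and by DESeq2 (0.0318). With NSR, N6dT and NSRdT none of the 9 tested genes was called by edgeR, with 8.67%, 4.79% and 5.28% of genes called. The counts at an unadjusted p under 0.05 were 2, 1 and 1, against 22.2%, 18.8% and 18.9% of all genes, and DESeq2 called Impact with N6dT and none with NSR or NSRdT. Igf2r was within ± 0.21 of bulk on the log2 scale with each of these 3 sets and with N6, with SE of 0.17 to 0.34, and Grb10 was within ± 0.16, with SE of 0.12 to 0.15. By library totals alone the median of all genes against bulk fell to between -1.39 and -0.45 over the 5 primer sets, and 41 of 45 values of the tested genes were then lower than in bulk, against 22 of 45 with TMM.

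The spread between libraries was wide for several of these genes. Among 4504 protein-coding genes at 20 to 200 CPM in bulk, the median coefficient of variation in bulk was 6.65%, against 24.7% for N6, 24.9% for NSR, 23.5% for N6dT, 23.4% for NSRdT and 30.0% for dT. Peg3 exceeded this in every random or mixed primer set, with 60.4% with N6, 99.3% with NSR, 63.1% with N6dT and 61.5% with NSRdT, each above the 90th percentile of those genes (49.2% to 52.6%), while with dT it was at 29.7%. Bulk gave 50.5% for Peg3, where the 90th percentile was 14.8%, with replicate 2 the high library. Grb10 was at 6.55% with N6, 8.30% with N6dT and 8.97% with NSRdT, each under the lower quartile of those genes (15.2%, 14.3% and 14.2%), at 15.3% with NSR, at 24.98% with dT, between the quartiles there (17.9% and 47.2%), and at 8.51% in bulk. Snrpn was at 5.59% with NSR, under the lower quartile of 15.95%, and ran from 12.1% to 27.0% in the other RT-RamDA sets. Impact ran from 6.73% with NSR to 41.4% with NSRdT, where the upper quartile was 36.3%.

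At the other end, Mest, Igf2 and Plagl1 had few counts at 10 pg. Mest, an enzyme-like protein of the hydrolase family and an early mark of mesoderm, had 15, 18 and 22 counts in bulk, 28, 0 and 0 with N6, 16, 4 and 0 with NSR, 19, 0 and 0 with N6dT, 3, 13 and 12 with NSRdT, and 0 in all 3 dT libraries. Mest had at least 1 count in 7 of 15 RT-RamDA libraries against 3 of 3 in bulk. A count of 0 allows up to 3 counts, or 0.211 CPM on average with dT, so Mest was at least 5.17-fold lower with dT than in bulk. Mest passed the filter of that fit through bulk alone and so had to differ, and its call (adjusted p = 0.0097 by edgeR) is given as a description. It was lost without bulk replicate 1 (0.0520) or 3 (0.0575) and in 1 fit over 18 libraries (0.108). Mest overlaps Copg2 on the other strand: 37.4% of the 31-base words of the most abundant Mest transcript occur in Copg2, which had 5360 counts in 18 libraries against 150 for Mest. The strand of counting is not given in the sources used here, so the 2 genes may share reads. Plagl1, a zinc finger transcription factor that regulates other imprinted genes, had 8 counts in all 18 libraries together, in 2 RT-RamDA libraries and 1 bulk library, and was not tested.

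Igf2 had 31, 451 and 18 counts in bulk, or 1.83, 26.9 and 1.08 CPM, and 0 to 11 counts in each RT-RamDA library, with 0 in all 3 dT libraries. Against the floor of 3 counts in dT, bulk was at least 47.0-fold higher with replicate 2 and at least 6.88-fold higher over replicates 1 and 3. No comparison of Igf2 with bulk was called by edgeR in its 6 libraries (adjusted p = 0.0667 with dT), although 1 fit over 18 libraries called it with dT (0.0260) and library totals alone called it lower with N6 (-4.48, adjusted p = 0.0430), NSR (-7.44, 0.0180) and N6dT (-5.12, 0.0459). The gene passed those filters through bulk alone. In bulk replicate 2 the counts of Igf2 were mostly assigned to transcripts from 2 start sites. The assignment was made by the authors' quantifier, and use of the start sites was not measured here. Igf2-002 took a further 17.5% of Igf2 counts over the 3 bulk libraries. Igf2-003 had 185.8 estimated counts there against 0 and 10.6 in replicates 1 and 3, and the transcripts that start near the other site (Igf2-001 and Igf2-201) had 166.1 against 18.4 and 0. The 250 bases before each start are shown because the extra counts were assigned to both. They are from RefSeq on GRCm38.p6, with each CpG, the site of DNA methylation, in capitals.
Igf2-003, chr7:142661272-142661521, minus strand: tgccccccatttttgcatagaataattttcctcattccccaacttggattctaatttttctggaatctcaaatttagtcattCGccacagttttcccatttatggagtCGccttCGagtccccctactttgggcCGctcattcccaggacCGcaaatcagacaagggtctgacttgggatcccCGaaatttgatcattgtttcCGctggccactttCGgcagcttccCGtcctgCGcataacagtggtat
Igf2-001, chr7:142657497-142657746, minus strand: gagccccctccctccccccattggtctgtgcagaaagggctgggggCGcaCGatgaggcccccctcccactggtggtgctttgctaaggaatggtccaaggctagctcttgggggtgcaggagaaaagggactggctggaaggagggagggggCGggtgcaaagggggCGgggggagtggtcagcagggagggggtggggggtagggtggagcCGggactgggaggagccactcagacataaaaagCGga
The first holds 10 CpG and the second 6. The median over the same 250 bases of all 32851 starts in the RefSeq table was 6. DNA methylation was not measured here. Igf2os, an RNA on the other strand of Igf2, had 46 counts in 18 libraries. Of the 31-base words of the most abundant Igf2 transcript, 92.3% occur in other annotated genes. Most of these occur in Gm49394 on the same strand (90.5%), which has no entry in the deposited table. Reads of the 2 genes therefore cannot be told apart. Of the words of Cdkn1c 28.4% occur in Gm44732, an antisense gene with 7 counts in 18 libraries, and these 2 may share reads as well.

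Bulk replicate 2 stood apart in other genes as well. Peg3 was at 73.9 CPM there against 34.9 and 31.4 in the other bulk libraries, a ratio of 2.23 to their mean, and the ratio for Igf2 was 18.5. The other genes described that were at 1 CPM or more in each bulk library ran from 0.730 for Cdkn1c to 1.16 for Igf2r. Of 34 other imprinted protein-coding genes at that level, Sfmbt2 (2.06) and Gnas (1.77) exceeded 1.5, as did 6.06% of all 13706 genes. H19, the maternally expressed neighbour of Igf2, had 40 counts in bulk replicate 2 against 2 and 4. The summed level of 21 primitive endoderm markers was 7925 CPM in that library, against 1265 and 1158 in the other bulk libraries and 1017 to 1397 in the RT-RamDA libraries, and 19 of the 21 were highest there among bulk libraries. Afp was at 0 in bulk, while 10 ES cell markers summed to 2654 CPM against 3366 and 3187, 8 trophectoderm markers to 57.3 against 29.2 and 26.7, and 8 fibroblast markers to 865.8 against 1074 and 1113, with Col3a1, Dcn and Lum at 0. All 10 ES cell markers had counts in every group. The part of that signal in the levels of Igf2 and Peg3 was not tested, and in bulk RNA a change in the share of cells cannot be told apart from a change in RNA per cell.

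**Figure D4:**
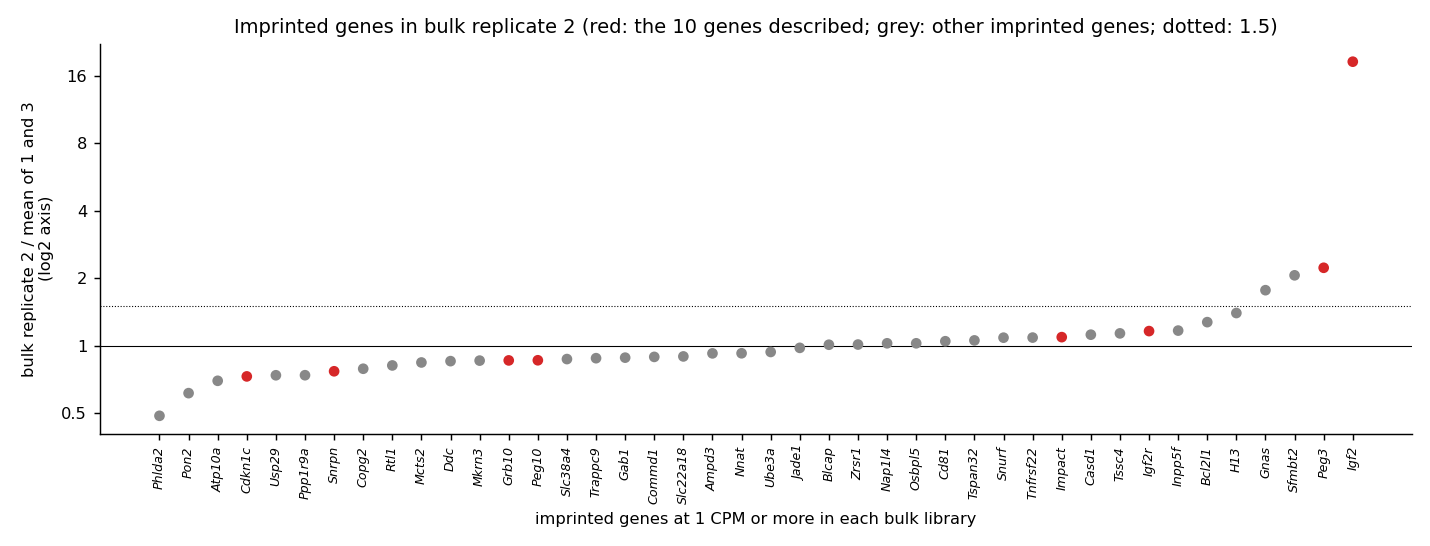
Ratio of bulk replicate 2 to the mean of bulk replicates 1 and 3 (vertical axis, log2 scale) for imprinted genes at 1 CPM or more in each bulk library (horizontal axis), with the genes described in red. Igf2 (18.5) and Peg3 (2.23) had the highest ratios, followed by Sfmbt2 (2.06) and Gnas (1.77), and most other imprinted genes lay near 1.

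Peg10 counts were assigned to different 5′ ends. The table holds transcripts with a longer 5′ end, Peg10-001 and Peg10-201, and one with a shorter 5′ end, Peg10-002. Peg10-001 carries 100 more bases at its 5′ end (chr6:4747306-4747405, exon 1, 5′ untranslated region) and is otherwise the same as Peg10-002. The first 30 bases of each mark these starts.
Peg10-001, chr6:4747306-4747335, plus strand: ggatttggcgccccccctcctaggatctct
Peg10-002, chr6:4747406-4747435, plus strand: cctgaccaactacgacctggggagagcagc
In bulk all Peg10 counts were assigned to the longer 5′ end in each library (1570, 1363 and 1599 counts). With dT none were, in any of 3 libraries with 443 to 857 counts. With N6 the share was 0%, 53.6% and 23.8%, with NSR 0%, 0% and 14.8%, with N6dT 0%, 0% and 88.1%, and with NSRdT 12.6%, 0% and 0%. In 10 of 15 RT-RamDA libraries no count was assigned to the longer end. The assignment was made by the authors' quantifier, reads over the 100 bases were not counted separately here, and the shares were not tested.

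**Figure D5:**
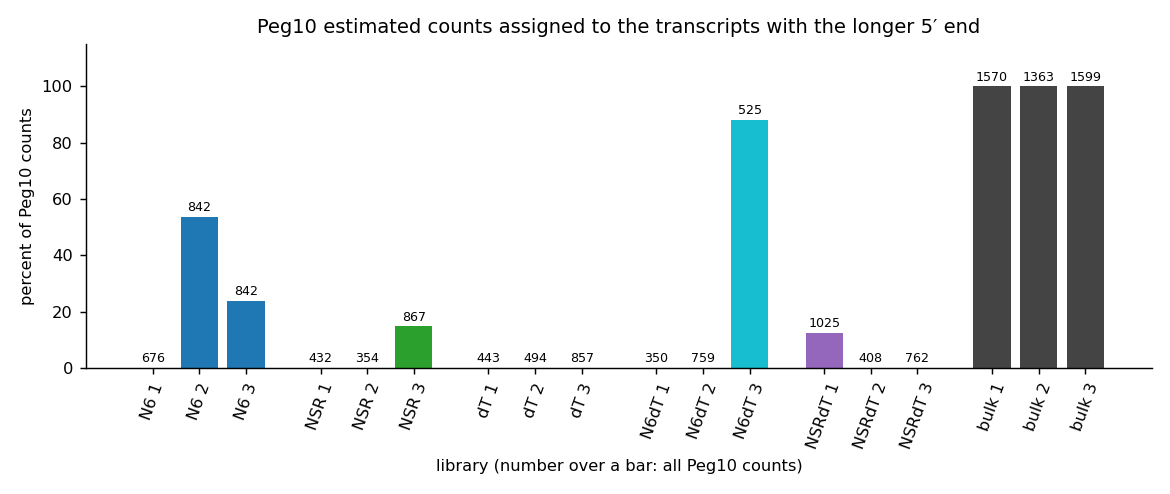
Percent of Peg10 estimated counts assigned to transcripts with the longer 5′ end (vertical axis) in each library (horizontal axis), with the Peg10 counts over each bar. All 3 bulk libraries were at 100%, all 3 dT libraries at 0%, and the other sets varied between libraries.

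Igf2r, Snrpn, Grb10 and Peg3 each had 1 main transcript in every group, whereas the leading transcript of Cdkn1c differed between groups. Impact has only 1 transcript entry, so its share could not vary. Snrpn has 2 entries and Cdkn1c 5. Igf2r-001 took 95.6% to 100% of the counts of Igf2r in each group, Snrpn-001 all counts of Snrpn, and Grb10-005 84.9% (dT) to 95.1% (bulk) of those of Grb10. Peg3-003, a transcript annotated with a retained intron, took 15.2% of Peg3 counts with NSR, 7.5% with N6, 2.9% with N6dT, 3.8% with NSRdT and 7.8% in bulk, and 0 of 1210 counts with dT. Snrpn shares 26.4% of its 31-base words with Gm38393, an overlapping gene on the same strand. Gm38393 was at 59.9 ± 9.41 CPM in bulk and 2.76 ± 2.38 with dT, a log2 fold change of -4.42 ± 0.92 (adjusted p = 0.0194 by edgeR). In bulk 89.0% of its counts were on Gm38393-004, which has no exon in common with Snrpn, and 8.2% on Gm38393-002, which has. When Gm38393-001 and Gm38393-002, the transcripts that hold Snrpn exons, were added to Snrpn, an alternative chosen after seeing the data, the log2 fold change of random primers against dT was -0.34 ± 0.21 (adjusted p = 0.320). With all Gm38393 transcripts added it reversed to 0.71 ± 0.22 (adjusted p = 0.0353), so the direction for the locus depends on which transcripts are counted as Snrpn.

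Of 59 other imprinted protein-coding genes in the table, 35 were tested in the 15 libraries, and for random primers against dT 2 rose and 2 fell, with 17.1% of all tested genes called and a median log2 fold change of 0.06 against 0.13 for all genes. Ube3a, a ubiquitin ligase, was higher with random primers (0.97 ± 0.25), as was Rtl1, a retrotransposon-derived gene like Peg10 (1.26 ± 0.41). Commd1 (-1.86 ± 0.44) and the tetraspanin Cd81 (-0.51 ± 0.16) were higher with dT. For dT against bulk 2 of 38 rose and 7 fell, with 18.8% of all tested genes called. Rtl1 was lower (-1.92 ± 0.29), as were Peg12 and Slc22a18, which had no count in any dT library and passed the filter through bulk, and Jade1 (0.39 ± 0.09) and Commd1 (0.96 ± 0.26) were higher. For dT added, NSR against N6 and the interaction none of the 35 was called by edgeR or DESeq2, with 2, 3 and 0 at an unadjusted p under 0.05, against 8.94%, 5.41% and 4.39% of all genes. Inpp5f (1.03 ± 0.18) and Ppp1r9a (1.01 ± 0.23) were higher with N6 than in bulk, Zrsr1 (1.41 ± 0.31) with NSR, Jade1 (0.62 ± 0.11) with N6dT and Ube3a (0.83 ± 0.11) with NSRdT.

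Of 26 factors that set, keep or remove imprints, 25 were tested, and for random primers against dT 5 rose and 4 fell, with 17.1% of all tested genes called, and the median was 0.17 against 0.13 for all genes. Tet1 (2.31 ± 0.10) and Tet2 (1.57 ± 0.17), which oxidize methylcytosine, and the zinc finger gene Zfp445 (3.57 ± 0.44), which binds imprinted regions with ZFP57, were higher with random primers. Trim28, the partner of both zinc finger proteins (-0.53 ± 0.08), the heterochromatin protein gene Cbx3 (-0.83 ± 0.14) and the histone chaperone gene Rbbp4 (-0.65 ± 0.12) were higher with dT. For dT against bulk 2 rose and 5 fell, with 18.8% of all tested genes called, and Zfp445 was at 4.42 CPM with dT against 38.4 in bulk (-3.10 ± 0.39) and Trim28 at 1099 against 651.3 (0.77 ± 0.09). Against bulk, NSR gave 4 higher and none lower (8.67% of all genes called), among them Smchd1 (0.77 ± 0.14), a chromosomal repressor of some imprinted clusters, and N6 gave 1 of each (7.21% of all genes), Tet1 (0.64 ± 0.13) and Rbbp4 (-0.44 ± 0.09). In the other 5 comparisons edgeR called none of the 25 and DESeq2 0 to 5. At an unadjusted p under 0.05 there were 3 for dT added, 2 for NSR against N6, 0 for the interaction, 5 with N6dT and 10 with NSRdT against bulk, where the shares of all genes were 8.94%, 5.41%, 4.39%, 18.8% and 18.9%.

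Among 34 genes of IGF and insulin signalling, the pathway of Igf2, Igf2r and Grb10, 30 were tested. For random primers against dT 6 rose and 2 fell, with 17.1% of all tested genes called, and the median was 0.55 against 0.13 for all genes. Igf2bp1, which encodes an Igf2 mRNA-binding protein, was higher with random primers (1.62 ± 0.15), as were the transcription factor gene Foxo3 (1.10 ± 0.21) and Rptor, a part of the mTOR complex (1.31 ± 0.35). Igfbp2, a secreted IGF-binding protein gene, was higher with dT (-0.99 ± 0.15), as was the GTPase gene Rheb (-0.88 ± 0.29). For dT against bulk 1 rose, Igfbp2 (1.10 ± 0.18), and 3 fell, Igf2bp1 (-1.71 ± 0.09), Foxo3 (-1.03 ± 0.15) and Mtor (-1.11 ± 0.22), with 18.8% of all tested genes called. Sos1, which couples receptors to Ras, was higher than in bulk with N6 (0.66 ± 0.13), NSR (1.24 ± 0.14) and NSRdT (0.70 ± 0.14), 3 comparisons that share the bulk libraries. Of 29 tested against bulk, 3 rose and 1 fell with NSR, 2 rose and 1 fell with NSRdT, 1 rose with N6 and 1 fell with N6dT, Akt2 (-0.80 ± 0.17), where 8.67%, 5.28%, 7.21% and 4.79% of all genes were called. For dT added, NSR against N6 and the interaction edgeR and DESeq2 called none of the 30, with 4, 1 and 0 at an unadjusted p under 0.05, against 8.94%, 5.41% and 4.39% of all genes.

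Cell type markers moved with the primers too. Of 10 ES cell markers 2 were higher with random primers, among them Pou5f1 (0.78 ± 0.14), and 5 were higher with dT, among them Dppa5a (-2.94 ± 0.09), with 17.1% of all tested genes called. Adding dT raised 2 of the 10, Dppa5a (1.82 ± 0.08) and Zfp42 (0.40 ± 0.08), with 2.17% of all genes called. Of 13 tested primitive endoderm markers 3 were higher with random primers, among them Gata6 (1.42 ± 0.21), and Apoe was higher with dT (-0.98 ± 0.10). Gata6 counts were not separated here from those of the Gata6 fusion that this line carries. Against bulk, the median log2 fold change of the tested primitive endoderm markers ran from -2.93 (NSR) to -2.34 (NSRdT) over the 5 primer sets. Bulk replicate 2 held the high level given above. With dT edgeR called 1 higher and 2 lower of 13 tested, with 18.8% of all tested genes called. The 2 lower, Sox7 and Pdgfra, were at 0.0231 and 0.0925 CPM with dT. Both passed the filter of that fit through bulk alone, so their calls are given as a description. In bulk they were at 12.6 and 31.6 CPM, with SD of 16.7 and 48.9. With the other 4 sets edgeR and DESeq2 called none. At an unadjusted p under 0.05 there were 5 of 15 with NSR, 6 of 13 with N6dT and 3 of 15 with NSRdT. The shares of all genes there were 22.2%, 18.8% and 18.9%. With N6 it was 6 of 13, but the share of all genes at that p is not given there. Nothing is therefore read from that count. By adjusted p edgeR called 7.21% of all tested genes with N6. For random primers against dT, edgeR and DESeq2 called none of 5 tested trophectoderm markers, with 0 at an unadjusted p under 0.05, and of 3 tested fibroblast markers 1 was higher and 1 lower.

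The genes with the nearest pattern were found by Pearson correlation of log2 CPM over 18 libraries, which share groups and depth, so the values are descriptions. Igf2r lay nearest to Rc3h1 (r = 0.938) and Rbm41 (0.885), and Grb10 to Fem1b (0.940) and Xpo4 (0.900). Peg10 lay nearest to Ski (0.853) and Calhm2 (0.831), Peg3 to Macrod2 (0.877) and Rbl2 (0.821), Snrpn to Pym1 (0.833) and Sdhb (0.831), and Impact to Sep15 (0.868) and Arl6 (0.823). Igf2 lay nearest to Plod1 (0.800) and the primitive endoderm marker Lamc1 (0.796), and Mest to Med12l (0.852) and Dnajb7 (0.847). Cdkn1c lay nearest to Stx8 (0.857) and Actn3 (0.851), and Igf2, Mest and Cdkn1c rest on low counts. For Igf2, bulk replicate 2 held 451 counts and no other library held over 31. The part of that library in its correlations was not tested.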

How the data were processed

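The deposited table holds estimated counts per transcript, which the authors made from reads with a quantifier that is not named; the rows carry GENCODE names and the values are not whole. Reads were converted with bcl2fastq 2.16.0.10 and the build is mm10, per the submitters' processing notes. Not given in the sources used here: the aligner, the quantifier and the strand. Counts were summed per gene identifier and rounded. TPM was computed from the transcript counts and the lengths in the row names. The 92 ERCC entries were left out.

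Fits used edgeR 4.0.16 in R 4.3.3 (TMM, filterByExpr, quasi-likelihood F test, adjusted p under 0.05): 1 fit of 15 RT-RamDA libraries for 4 contrasts, and 1 fit of 6 libraries for each primer set against bulk. The SE is the fold change over the square root of F. The code was tested on simulated data. Alternatives were DESeq2 1.42.0, no filter, library totals, other gene sets, a replicate block, other samples in the fit and leaving out each library. Python 3.11.15 with pandas 2.3.3 and matplotlib 3.10.9 did the rest. Depth leaves each count of 0 compatible with up to 3 counts, and such limits cover counting error only.

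The 10 genes and the gene lists were chosen with earlier results of these data known. Beyond the 10, the text names up to 3 called genes per list, direction and comparison by smallest p, and the 2 nearest patterns per gene, leaving out predicted symbols and processed pseudogenes. Some genes that this rule would name are left unprinted, and H19, Copg2 and Gm38393, and Sfmbt2 and Gnas in bulk replicate 2, were added after their values were seen. Impact was left without sequence, and its sequence features come from an annotated version of 3763 bases.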

Additional observations from a re-analysis of the deposited data

How the results depend on the processing

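Of 1183 alternative values for single genes, 1105 kept their direction and side of the threshold, or were called in neither fit, 41 lost a call, 22 gained one and 15 reversed, and 88 changed sign without a call. The cause of each change was not tested.

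By library totals alone the number of genes called was 5148 in place of 2678 for random primers against dT, 543 in place of 341 for dT added and 540 in place of 27 for NSR against N6. Against bulk it was 8712 in place of 1096 with N6, 6102 in place of 1336 with NSR, 8087 in place of 730 with N6dT and 3921 in place of 821 with NSRdT. The share of calls that were higher moved from 82.7% to 94.5% for dT added, 25.9% to 97.4% for NSR against N6, 45.9% to 1.63% with N6, 46.3% to 2.95% with NSR, 36.7% to 21.9% with dT, 56.3% to 1.60% with N6dT and 51.0% to 4.57% with NSRdT. Of the 10 genes, 2 of 8 tested were called for random primers against dT (Impact and Snrpn) and 1 of 8 for NSR against N6 (Grb10). Over all genes 5148 and 540 of 15682 tested were called there. Against bulk, of 9 tested, 6 each were called with N6, NSR and N6dT, 5 with dT and 3 with NSRdT. All genes called against bulk were 8712 of 15207 tested with N6, 6102 of 15418 with NSR and 8087 of 15234 with N6dT. With dT they were 2813 of 15708 and with NSRdT 3921 of 15553. Reversed by library totals were Grb10 for random primers against dT (-0.36), Igf2r (-1.21), Peg10 (-0.55) and Impact (-0.74) with N6, Grb10 with NSR (-0.84), Igf2r (-1.19), Peg10 (-1.11), Snrpn (-1.02) and Impact (-0.63) with N6dT, and Peg10 (-0.63) and Grb10 (-0.61) with NSRdT. Library totals moved 26 of 60 group levels by over 1 SD.

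With DESeq2 573 genes were called for dT added, 111 for NSR against N6, 70 in place of 10 for the interaction, 2075 with N6, 2324 with NSR, 1766 with N6dT and 1858 with NSRdT, and of the 10 genes 2 with N6 and 1 with N6dT. By DESeq2 72.1% of calls for dT added and 50% in place of 70% for the interaction were higher. Without the filter on low counts the numbers were 89 for NSR against N6, 53 for the interaction, 607 with N6, 668 with NSR, 367 with N6dT and 380 with NSRdT, and 0 of the 10 genes with N6. One fit over 18 libraries called 584, 701, 322 and 361 genes for those 4 sets, and 0 of the 10 with N6. With only the groups compared, 4 genes were called for the interaction.

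Same-numbered libraries did not deviate together (residual correlations from -0.0201 to 0.0362 over 11258 genes), and 6 of 18 correlated best with their own number. With the replicate number as a block 2295 genes were called for random primers against dT, 303 for dT added, 28 for NSR against N6 and 5 for the interaction, and against bulk 572 with N6, 584 with NSR, 706 in place of 2957 with dT, 312 with N6dT and 303 with NSRdT. The block left 2 of the 10 genes for random primers against dT (Igf2r and Peg10) and 2 for dT against bulk (Igf2r and Impact).

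Leaving out 1 library gave 2088 to 2253 genes for random primers against dT, 269 to 298 for dT added, 18 to 32 for NSR against N6, 0 to 7 for the interaction, and against bulk 359 to 2151 with N6, 365 to 2581 with NSR, 299 to 5089 with dT, 207 to 1468 with N6dT and 225 to 1770 with NSRdT. The called of the 10 genes were 2 to 3 for random primers against dT, 0 to 2 with N6, 0 to 1 with NSR, 0 to 4 with dT, 0 to 1 with N6dT and 0 to 0 in the rest. Mest ran from -6.74 without N6 replicate 1 to 1.33 without N6 replicate 2 for N6 against bulk, and from -6.77 without N6dT replicate 1 to 0.63 without N6dT replicate 2 for N6dT against bulk, where replicate 1 of each set held its counts. Snrpn reversed when summed with all Gm38393 transcripts, to 0.71 for random primers against dT and -0.83 for dT against bulk. Mest, Igf2 and Plagl1 had counts in 7, 6 and 2 of 15 RT-RamDA libraries. The part of depth, input or primers in this was not tested.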
